A study of Mus musculus with 15 samples.

Results

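The cytotoxic granule genes described here are 9 genes chosen by symbol: Prf1, Gzma, Gzmb, Gzmk, Gzmm, Nkg7, Ctsw, Cst7 and Ccl5. They are 9 of 53762 genes in the count table, and each symbol matched 1 row. The rule itself used symbols only, but the symbols were chosen with earlier results of these data known. Of the 9, 8 passed the filter on low counts and were tested among 16550 genes, while Gzmk did not pass it and is given by its counts. Killer lymphocytes store perforin and granzymes in secretory lysosomes and release them towards a bound target cell, where perforin opens the membrane and granzymes cleave proteins inside. In the thymus, the transcription factor Thpok (gene Zbtb7b) directs MHC class II-restricted cells to the CD4 helper lineage, and Runx3 directs MHC class I-restricted cells to the CD8 lineage. In mouse CD8 T cells Runx3 is known to bind and support genes of this granule set, Prf1 and Gzmb among them.

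RNA was sequenced from mature thymocytes of mixed bone marrow chimeras of the C57BL/6 strain, in 15 libraries that make 5 groups of 3. Thpok-RKF+ CD4+CD8+ cells, Thpok-RKF- CD4+CD8+ cells and Thpok-RKF- CD8 single-positive (SP) cells were CD45.2+ and came from marrow with both Thpok alleles floxed, 1 floxed and 1 dYFP allele of Runx3, and the Cd4-Cre transgene, active in developing T cells, grown in B2m-/- hosts, which lack MHC class I on host cells. The 3 mutant groups therefore share the Thpok and Runx3 alleles and Cd4-Cre. The difference between them is Thpok-RKF, which the labels name but do not explain, and the CD4 and CD8 gate. Wild-type (WT) CD8 SP cells were CD45.1+CD45.2+ from I-Ab-/- hosts, which lack MHC class II, and WT CD4 SP cells were CD45.1+CD45.2+ from B2m-/- hosts. Mutant cells and WT CD8 SP cells thus differ in host as well as genotype, and those 2 sources of a difference cannot be told apart. WT CD8 SP and WT CD4 SP cells likewise differ in host as well as lineage, which cannot be told apart either. All populations were sorted as TCRb-high cells with little CD24, CD44 or CD69. The labels give no ages. They also do not say whether libraries of a group are separate chimeras, so a p-value reflects library-to-library spread that may be technical.

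Zbtb7b stood at 811, 768 and 823 CPM (read counts normalised for depth with TMM factors) in Thpok-RKF+ CD4+CD8+ libraries and between 1.67 and 2.95 CPM in the 6 Thpok-RKF- libraries, against 27.4 to 79.1 CPM in WT CD4 SP libraries. Runx3 averaged 305, 279 and 267 CPM in Thpok-RKF+ CD4+CD8+ cells, Thpok-RKF- CD4+CD8+ cells and Thpok-RKF- CD8 SP cells, against 206 CPM in WT CD8 SP and 28.8 CPM in WT CD4 SP cells. The counts cover whole genes and do not show whether the floxed parts were deleted. Cd8a was at most 7.67 CPM in WT CD4 SP libraries and at least 747 CPM in all other libraries, and Cd4 was at most 3.85 CPM in WT CD8 SP libraries. Summed levels of 6 mature T cell markers lay between 5079 and 8353 CPM. Libraries numbered 1 stood apart within their groups in the stress gene Jun, at 105, 4.54 and 3.54 CPM in replicates 1, 2 and 3 of Thpok-RKF- CD8 SP cells.

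The promoters of Prf1, Nkg7 and Cst7, the genes with the widest range between the groups among the abundant members, are printed because Runx3 is one of the factors that differs between the populations. Each line is the sequence 250 bases before the RefSeq start site (assembly GRCm38.p6, plus strand, at chr10:61297586-61297835, chr7:43436888-43437137 and chr2:150570165-150570414 in that order), with the match to the Runx letters TGTGGT or TGCGGT on either strand in capitals.
Prf1: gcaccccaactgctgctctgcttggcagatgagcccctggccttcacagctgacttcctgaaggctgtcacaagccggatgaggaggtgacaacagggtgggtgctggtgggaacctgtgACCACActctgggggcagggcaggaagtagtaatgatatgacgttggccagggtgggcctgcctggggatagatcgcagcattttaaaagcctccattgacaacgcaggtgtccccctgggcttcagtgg
Nkg7: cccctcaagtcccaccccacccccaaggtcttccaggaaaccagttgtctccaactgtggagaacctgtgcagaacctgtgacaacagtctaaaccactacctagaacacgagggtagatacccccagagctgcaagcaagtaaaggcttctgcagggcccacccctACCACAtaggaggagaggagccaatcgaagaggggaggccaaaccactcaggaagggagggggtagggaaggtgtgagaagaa
Cst7: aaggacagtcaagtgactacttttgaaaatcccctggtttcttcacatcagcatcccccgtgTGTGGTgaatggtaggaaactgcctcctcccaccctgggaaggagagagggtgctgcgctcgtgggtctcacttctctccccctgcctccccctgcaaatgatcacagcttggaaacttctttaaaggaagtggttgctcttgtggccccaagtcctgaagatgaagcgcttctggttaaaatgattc
The match begins 130 bases before the start site in Prf1, 83 in Nkg7 and 188 in Cst7. The table of promoters held 7 of the 9 members, all but Ctsw and Ccl5, and 6 of the 7 had a Runx match, Gzmk being without one. Of all 32851 promoters of this length, 18.59% had such a match. The Ets letters AGGAAG or CGGAAG were found in 4 of the 7 members and in 39.2% of all promoters, and the T-box letters GGTGTGA in 3 of the 7 and in 3.33% of all promoters. A member counted if any of its windows held the letters, whereas the shares over all promoters are per window. Gzmm had windows starting at chr10:79688770 and chr10:79693576, with the T-box letters in the latter alone. No match of different motifs overlapped in the 3 printed windows. A match is a string of letters in a window and does not show binding.

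The members fell into an abundant and a sparse set. Per kilobase of exon, Nkg7 averaged 1344 ± 156 CPM per kb in WT CD8 SP cells (SD, n = 3), Ctsw 560 ± 75.6, Cst7 107 ± 6.55 and Prf1 50.0 ± 5.45, and these 4 did not overlap in any pair. The other 5 averaged between 0.0898 (Gzmk) and 2.38 (Ccl5) CPM per kb there. In Thpok-RKF+ CD4+CD8+ cells the order was different, with Ctsw at 440 ± 11.98 CPM per kb, Nkg7 at 172 ± 38.2, Prf1 at 101 ± 21.9 and Cst7 at 14.002 ± 0.827. Thpok-RKF- CD4+CD8+ cells had the same order, with Ctsw at 298 ± 92.1, Nkg7 at 187 ± 30.5, Prf1 at 94.3 ± 7.15 and Cst7 at 8.51 ± 0.766 CPM per kb. In Thpok-RKF- CD8 SP cells Nkg7 (258 ± 10.3 CPM per kb) and Ctsw (253 ± 73.2) did not differ beyond their spread, above Prf1 (125 ± 9.26) and Cst7 (17.2 ± 1.00). WT CD4 SP cells had Ctsw at 206 ± 16.8 CPM per kb, Prf1 at 12.7 ± 1.22, Cst7 at 5.43 ± 1.08 and Nkg7 at 3.21 ± 2.44, the Cst7 mean being within the spread of Nkg7. Exon lengths are those of GENCODE M21 on GRCm38, which is not the build the submitters' notes name.

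**Figure D1:**
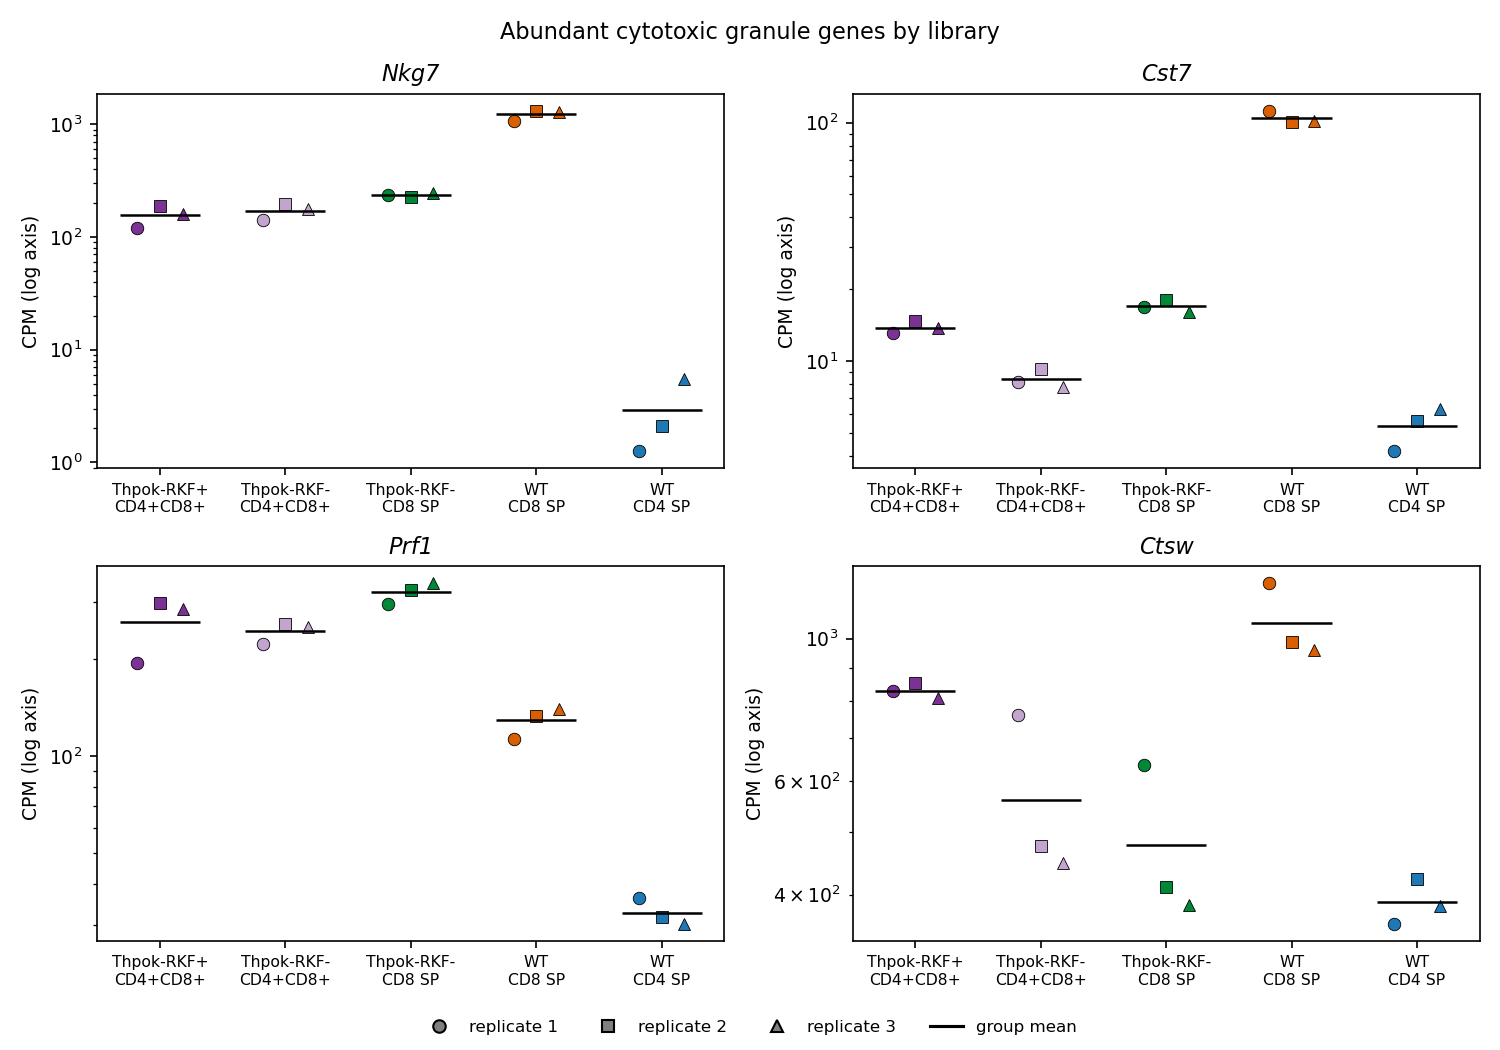
CPM on a log axis for Nkg7, Cst7, Prf1 and Ctsw in each library by group, with symbols for the replicate number and a line at the group mean (n = 3 each). The mutant groups sit between the WT groups for Nkg7 and Cst7 and above both for Prf1.

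Prf1 encodes perforin, the pore-forming protein of the granule, and was the one member higher in all mutant groups than in WT CD8 SP cells. It had 195, 299 and 286 CPM in Thpok-RKF+ CD4+CD8+ libraries, 223, 257 and 251 CPM in Thpok-RKF- CD4+CD8+ libraries and 297, 327 and 344 CPM in Thpok-RKF- CD8 SP libraries, against 113, 134 and 140 CPM in WT CD8 SP and 36.2, 31.7 and 30.2 CPM in WT CD4 SP libraries. All 9 mutant libraries lay above all 6 WT libraries, and the WT groups did not overlap. The mutant means were 201%, 189% and 250% of the WT CD8 SP mean in Thpok-RKF+ CD4+CD8+ cells, Thpok-RKF- CD4+CD8+ cells and Thpok-RKF- CD8 SP cells. Relative to WT CD8 SP cells, Prf1 rose by 1.01 ± 0.15 on the log2 scale (SE) in Thpok-RKF+ CD4+CD8+ cells, by 0.92 ± 0.15 in Thpok-RKF- CD4+CD8+ cells and by 1.32 ± 0.15 in Thpok-RKF- CD8 SP cells (edgeR quasi-likelihood F test, p adjusted by Benjamini-Hochberg over all genes, adjusted p = 0.000456, 0.000992 and 2.26e-05). Relative to WT CD4 SP cells the rises were 2.99 ± 0.16, 2.90 ± 0.16 and 3.30 ± 0.16 in the same order (edgeR, adjusted p = 1.51e-08, 2.62e-08 and 8.33e-09), and 1.98 ± 0.15 in WT CD8 SP cells (adjusted p = 7.96e-07). These 7 calls held in all 13 alternatives each.

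Among the mutant groups Prf1 did not pass in any of the 3 comparisons. Thpok-RKF+ over Thpok-RKF- CD4+CD8+ cells gave a log2 fold change of 0.10 ± 0.15, and Thpok-RKF- CD4+CD8+ over Thpok-RKF- CD8 SP cells gave -0.41 ± 0.15, with groups that did not overlap. Neither passed (edgeR, adjusted p = 0.824 and 0.255). Without the libraries numbered 1 the second passed at -0.39 (edgeR, adjusted p = 0.0392, with a range of 0.0392 to 0.614 over its alternatives). Thpok-RKF+ CD4+CD8+ over Thpok-RKF- CD8 SP cells gave -0.31 ± 0.15, which did not pass.

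The granzymes, the serine proteases that perforin delivers, were near the limit of detection in all groups. Gzma, a tryptase, had 33, 52 and 47 counts in Thpok-RKF+ CD4+CD8+ libraries, 69, 85 and 37 in Thpok-RKF- CD4+CD8+ libraries and 51, 70 and 91 in Thpok-RKF- CD8 SP libraries, against 50, 56 and 28 counts in WT CD8 SP and 20, 15 and 16 counts in WT CD4 SP libraries. Libraries held 37311823 to 48607260 gene counts, so the highest Gzma level was 2.03 CPM. WT CD4 SP cells were lowest and did not overlap with the other groups. In CPM those groups overlapped with each other, with 1 exception. Thpok-RKF+ CD4+CD8+ libraries (at most 1.12 CPM) lay below Thpok-RKF- CD8 SP libraries (at least 1.14 CPM). Relative to WT CD4 SP cells, Gzma rose by 1.85 ± 0.47 on the log2 scale in Thpok-RKF- CD4+CD8+ cells, 2.04 ± 0.48 in Thpok-RKF- CD8 SP cells and 1.57 ± 0.47 in WT CD8 SP cells (edgeR, adjusted p = 0.0166, 0.00922 and 0.0322), while Thpok-RKF+ CD4+CD8+ cells did not pass (adjusted p = 0.104). The call in Thpok-RKF- CD8 SP cells held in 13 of 13 alternatives, that in Thpok-RKF- CD4+CD8+ cells in 8 and that in WT CD8 SP cells in 4, where 5 of 6 single libraries left out ended it (adjusted p up to 0.119), as did leaving out the libraries numbered 1 (adjusted p = 0.113, with a range of 0.0094 to 0.152 over its alternatives).

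Gzmb encodes the aspartate-cleaving granzyme that activates caspases. It had 23, 28 and 0 counts in Thpok-RKF+ CD4+CD8+ libraries, 0, 19 and 0 in Thpok-RKF- CD4+CD8+ libraries and 22, 0 and 0 in Thpok-RKF- CD8 SP libraries, against 78, 54 and 110 counts in WT CD8 SP and 0, 0 and 2 counts in WT CD4 SP libraries. It was detected in every WT CD8 SP library and in 4 of 9 mutant libraries, with no mutant library reaching the lowest WT CD8 SP library. The summed counts of WT CD8 SP over WT CD4 SP cells, 242 against 2, gave a ratio of 137 after scaling for depth (95% exact binomial interval 37.4 to 1134). This interval, like the others here, covers counting error only. The WT difference passed (edgeR, adjusted p = 0.0457) and held in 4 of 13 alternatives, with each of the 6 libraries left out in turn ending the call (adjusted p up to 0.130), and so did leaving out the libraries numbered 1 (adjusted p = 0.118). Mutant groups did not pass against WT CD8 SP cells, with adjusted p = 0.447, 0.205 and 0.199 by edgeR in Thpok-RKF+ CD4+CD8+ cells, Thpok-RKF- CD4+CD8+ cells and Thpok-RKF- CD8 SP cells. Their ratios of summed counts to WT CD8 SP cells were 0.187 (0.135 to 0.254), 0.0678 (0.0401 to 0.108) and 0.0807 (0.0496 to 0.125) in the same order.

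Gzmk and Gzmm completed the granzymes of the set. Gzmk, a tryptase of memory-like T cells, had 2, 0 and 0 counts in Thpok-RKF+ CD4+CD8+ libraries and 0 in the 6 Thpok-RKF- libraries, against 1, 12 and 2 counts in WT CD8 SP libraries and 0 in the 3 WT CD4 SP libraries. A count of 0 over a group allows up to 0.0221 CPM in Thpok-RKF- CD8 SP and in WT CD4 SP cells and 0.0215 CPM in Thpok-RKF- CD4+CD8+ cells (3 counts over the group). Against that floor Gzmk was 5.64-fold lower in Thpok-RKF- CD8 SP and 5.79-fold lower in Thpok-RKF- CD4+CD8+ cells than in WT CD8 SP cells. With counting error in both groups, the exact binomial limits were at least 4.04-fold and at least 4.15-fold lower, and 12 of the 15 WT CD8 SP counts came from 1 library. Gzmm, which cleaves after methionine, had 19, 65 and 118 counts in Thpok-RKF+ CD4+CD8+ libraries, 60, 57 and 16 in Thpok-RKF- CD4+CD8+ and 68, 141 and 95 in Thpok-RKF- CD8 SP libraries, against 67, 63 and 96 in WT CD8 SP and 113, 48 and 68 in WT CD4 SP libraries. The WT groups overlapped, and it passed in 0 of 10 comparisons by edgeR, none of them with an unadjusted p below 0.05.

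**Figure D2:**
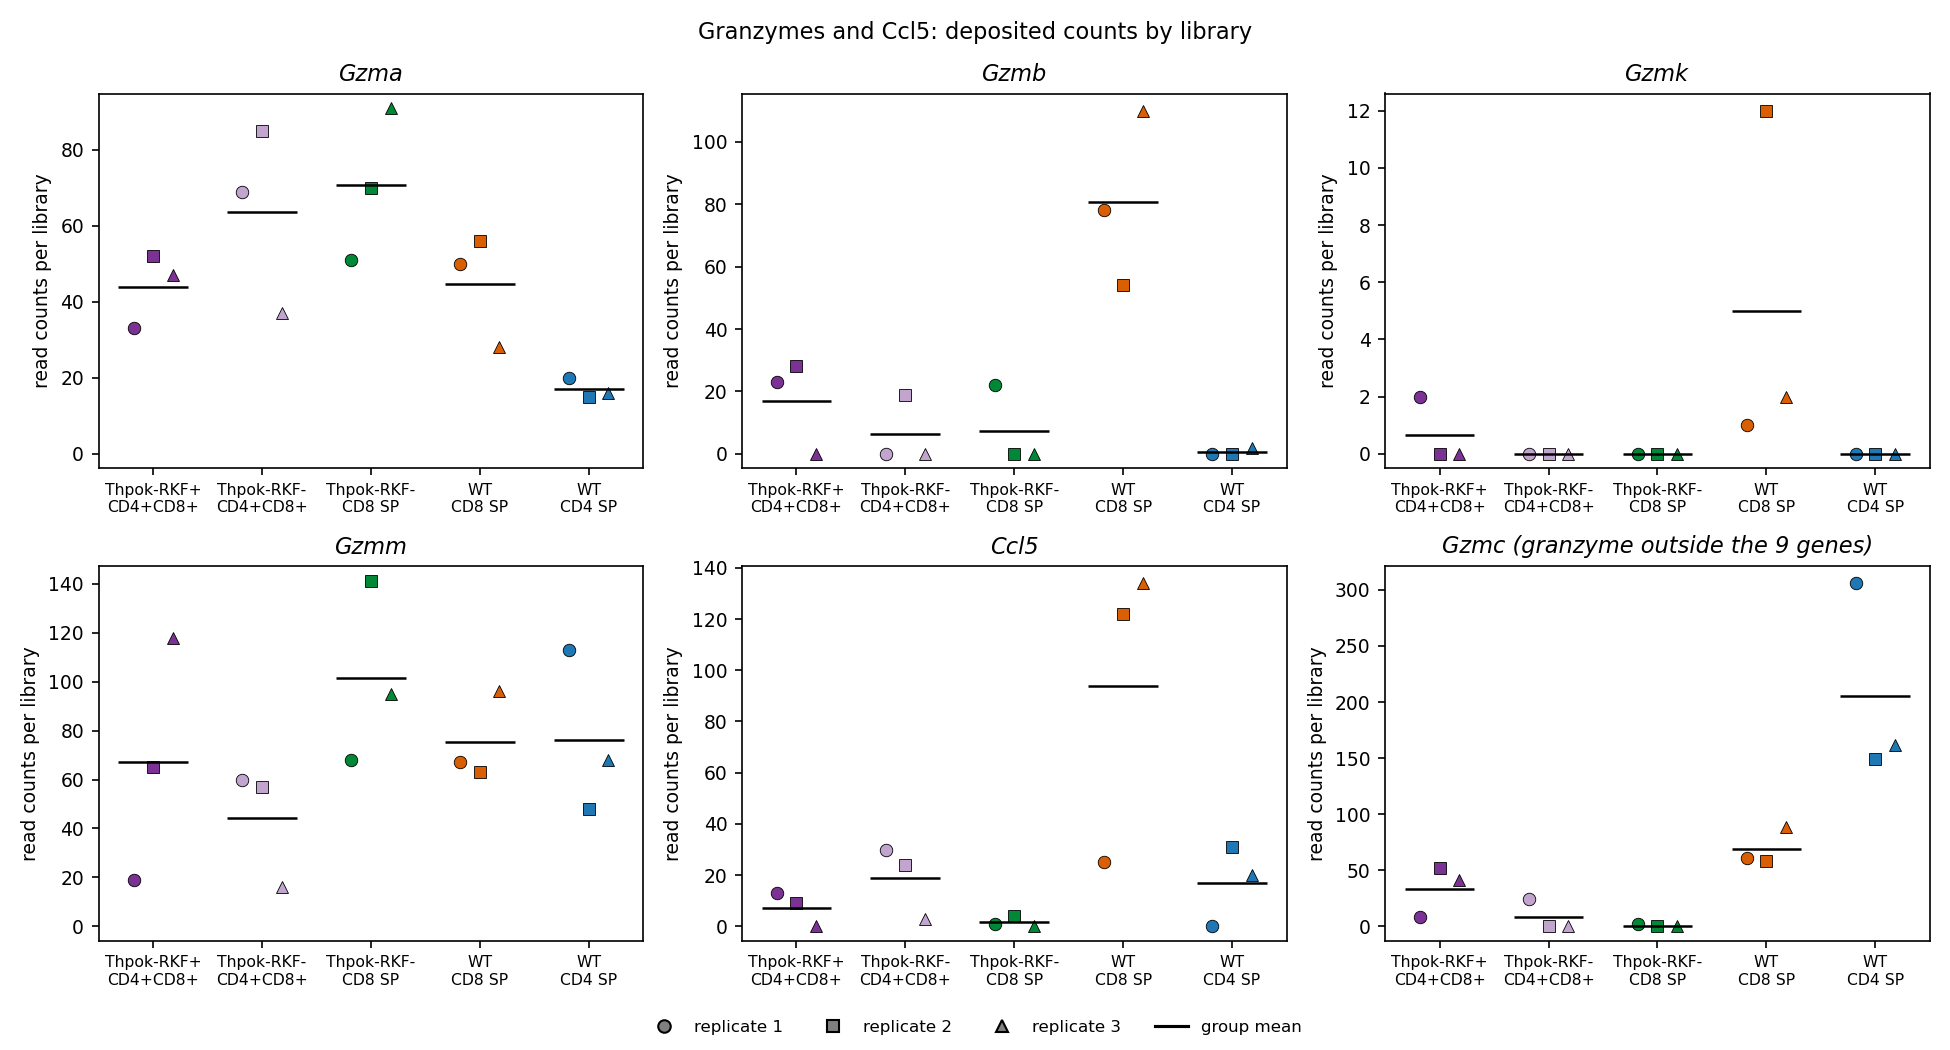
Deposited read counts per library (linear axis) for Gzma, Gzmb, Gzmk, Gzmm, Ccl5 and, for comparison, Gzmc, with symbols for the replicate number and a line at the group mean (n = 3 each). Gzmb reaches 54 to 110 counts in WT CD8 SP libraries and at most 28 elsewhere, while Gzmc is highest in WT CD4 SP libraries.

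Nkg7, which encodes a granule membrane protein needed for full exocytosis in mouse killer cells, stood in all mutant groups between the WT groups and far from both. It had 121, 190 and 161 CPM in Thpok-RKF+ CD4+CD8+ libraries, 140, 195 and 178 CPM in Thpok-RKF- CD4+CD8+ libraries and 235, 226 and 245 CPM in Thpok-RKF- CD8 SP libraries, against 1065, 1327 and 1294 CPM in WT CD8 SP and 1.26, 2.09 and 5.46 CPM in WT CD4 SP libraries. The WT groups and the mutant groups did not overlap. Mutant means were 12.8%, 13.9% and 19.2% of the WT CD8 SP mean in the same order, and the WT CD4 SP mean was 0.239% of it. Relative to WT CD8 SP cells, Nkg7 fell by 2.96 ± 0.34, 2.84 ± 0.34 and 2.38 ± 0.34 on the log2 scale in Thpok-RKF+ CD4+CD8+ cells, Thpok-RKF- CD4+CD8+ cells and Thpok-RKF- CD8 SP cells (edgeR, adjusted p = 5.37e-05, 8e-05 and 0.000153). In bulk RNA of this kind, fewer expressing cells and less RNA per cell cannot be told apart.

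Relative to WT CD4 SP cells, Nkg7 rose by 5.75 ± 0.40, 5.87 ± 0.41 and 6.33 ± 0.41 on the log2 scale in the 3 mutant groups in the same order, and by 8.71 ± 0.45 in WT CD8 SP cells (edgeR, adjusted p = 2.94e-07, 3.39e-07, 1.16e-07 and 1.55e-08). WT CD4 SP replicate 3 set these sizes in part: without it the rises were 6.53, 6.64, 7.09 and 9.47. In that library Klrd1, a receptor gene of killer cells, was also highest of its group, at 1.74 CPM against 0.0457 and 0.476 CPM in replicates 1 and 2, whereas Cd8a was lowest, at 2.13 CPM against 7.67 and 3.19 CPM. The summed level of 7 NK cell markers was also lowest there, at 0.366 CPM against 2.85 and 0.497 CPM in replicates 1 and 2. Whether a few other cells supplied the Nkg7 of that library was not tested. Among mutant groups Nkg7 gave -0.12 ± 0.32 for Thpok-RKF+ over Thpok-RKF- CD4+CD8+ cells, -0.46 ± 0.32 for Thpok-RKF- CD4+CD8+ over Thpok-RKF- CD8 SP cells and -0.58 ± 0.32 for Thpok-RKF+ CD4+CD8+ over Thpok-RKF- CD8 SP cells, and none passed (edgeR, adjusted p = 0.913, 0.727 and 0.382).

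Cst7 encodes cystatin F, an inhibitor of the cathepsins that activate granzymes. It was the one member whose CPM did not overlap between any of the mutant groups, though not every comparison between them passed. It had 13.04, 14.7 and 13.7 CPM in Thpok-RKF+ CD4+CD8+ libraries, 8.14, 9.24 and 7.80 CPM in Thpok-RKF- CD4+CD8+ libraries and 16.8, 17.998 and 16.05 CPM in Thpok-RKF- CD8 SP libraries, against 112, 101 and 102 CPM in WT CD8 SP and 4.18, 5.61 and 6.26 CPM in WT CD4 SP libraries. No pair of groups overlapped. Cst7 fell relative to WT CD8 SP cells by 2.93 ± 0.16, 3.65 ± 0.16 and 2.63 ± 0.15 on the log2 scale in Thpok-RKF+ CD4+CD8+ cells, Thpok-RKF- CD4+CD8+ cells and Thpok-RKF- CD8 SP cells (edgeR, adjusted p = 2.35e-08, 6.54e-09 and 4.92e-08). It rose relative to WT CD4 SP cells by 1.37 ± 0.15, 0.65 ± 0.15 and 1.66 ± 0.15 in the same order, and by 4.29 ± 0.17 in WT CD8 SP cells (edgeR, adjusted p = 3.86e-05, 0.0103, 4.29e-06 and 7.92e-10). The rise in Thpok-RKF- CD4+CD8+ cells over WT CD4 SP cells had adjusted p = 0.0542 without Thpok-RKF- CD4+CD8+ replicate 2 and 0.1003 with only the compared groups in the fit, within a range of 0.000122 to 0.1003 over its alternatives.

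Between mutant groups, Cst7 fell by 1.01 ± 0.15 on the log2 scale in Thpok-RKF- CD4+CD8+ relative to Thpok-RKF- CD8 SP cells (edgeR, adjusted p = 0.00129), a call that held in 13 of 13 alternatives. It was higher by 0.72 ± 0.15 in Thpok-RKF+ than in Thpok-RKF- CD4+CD8+ cells (edgeR, adjusted p = 0.0344). That call held in 6 of 13 alternatives. It was lost without Thpok-RKF- CD4+CD8+ replicate 1, 2 or 3 (adjusted p = 0.113, 0.0758 and 0.159) and without Thpok-RKF+ CD4+CD8+ replicate 2 or 3 (adjusted p = 0.137 and 0.129), by limma (0.0609) and with only the compared groups in the fit (0.203), while the log2 value stayed between 0.62 and 0.80. Thpok-RKF+ CD4+CD8+ over Thpok-RKF- CD8 SP cells gave -0.29 ± 0.15, which did not pass (edgeR, adjusted p = 0.318).

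Ctsw encodes cathepsin W, a papain-like protease of cytotoxic lymphocytes whose loss leaves killing by mouse T cells intact. Its level was high in every group. It had 829, 853 and 808 CPM in Thpok-RKF+ CD4+CD8+ libraries, 762, 476 and 449 CPM in Thpok-RKF- CD4+CD8+ libraries and 636, 410 and 385 CPM in Thpok-RKF- CD8 SP libraries, against 1221, 990 and 960 CPM in WT CD8 SP and 360, 423 and 384 CPM in WT CD4 SP libraries. Replicate 1 was the highest of both Thpok-RKF- groups and of WT CD8 SP cells, and so was Jun. Jun was also highest in replicate 1 of the other groups, where Ctsw was not, and the relation was not tested. WT CD8 SP libraries lay above all others, and Thpok-RKF- CD8 SP libraries overlapped with WT CD4 SP libraries. Relative to WT CD8 SP cells Ctsw fell by 0.91 ± 0.21 in Thpok-RKF- CD4+CD8+ and by 1.15 ± 0.21 in Thpok-RKF- CD8 SP cells (edgeR, adjusted p = 0.00915 and 0.0011), while Thpok-RKF+ CD4+CD8+ cells had -0.35 ± 0.20 and did not pass (adjusted p = 0.346). Relative to WT CD4 SP cells it rose by 1.09 ± 0.21 in Thpok-RKF+ CD4+CD8+ and by 1.44 ± 0.21 in WT CD8 SP cells (edgeR, adjusted p = 0.0039 and 0.000241).

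Ctsw did not pass in Thpok-RKF- cells relative to WT CD4 SP cells, with log2 fold changes of 0.53 ± 0.20 in CD4+CD8+ and 0.29 ± 0.20 in CD8 SP cells (edgeR, adjusted p = 0.0862 and 0.355). The CD4+CD8+ libraries nonetheless all lay above the WT CD4 SP libraries. The first passed in 3 of 13 alternatives (adjusted p from 0.0321 to 0.402), and the second turned to -0.03 without the libraries numbered 1. Thpok-RKF+ over Thpok-RKF- CD4+CD8+ cells gave 0.56 ± 0.20 (edgeR, adjusted p = 0.228), with groups that did not overlap, and 0.84 without the libraries numbered 1 (adjusted p = 0.00154, within a range of 0.00154 to 0.499 over its alternatives). Ctsw rose by 0.80 ± 0.20 in Thpok-RKF+ CD4+CD8+ over Thpok-RKF- CD8 SP cells (edgeR, adjusted p = 0.0342), a call lost without Thpok-RKF- CD8 SP replicate 2 or 3 (0.136 and 0.149), without Thpok-RKF+ CD4+CD8+ replicate 2 or 3 (0.0885 and 0.0820) and with only the compared groups in the fit (0.0704). Ctsw shares 9 exon bases, 0.477% of its exon length, with Fibp on the opposite strand, and no source names the strand setting of the counting.

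Ccl5 encodes a chemokine that memory and killer T cells store and release. It had 13, 9 and 0 counts in Thpok-RKF+ CD4+CD8+ libraries, 30, 24 and 3 in Thpok-RKF- CD4+CD8+ libraries and 1, 4 and 0 in Thpok-RKF- CD8 SP libraries, against 25, 122 and 134 counts in WT CD8 SP and 0, 31 and 20 counts in WT CD4 SP libraries. WT CD8 SP cells averaged 2.28 ± 1.40 CPM (SD, n = 3), with replicate 1 lowest at 0.664 CPM, and lay above all libraries of the other groups. Ccl5 fell in Thpok-RKF- CD8 SP relative to WT CD8 SP cells (edgeR, adjusted p = 0.0175). The summed counts, 5 against 281, gave a ratio of 0.0158 after scaling for depth (95% exact binomial interval 0.00509 to 0.0373). The call held in 9 of 13 alternatives and was lost without WT CD8 SP replicate 2 or 3 (adjusted p = 0.0517 and 0.0522) and without Thpok-RKF- CD8 SP replicate 1 or 3 (0.0725 and 0.0679). Ccl5 passed in none of the 9 other comparisons.

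**Figure D3:**
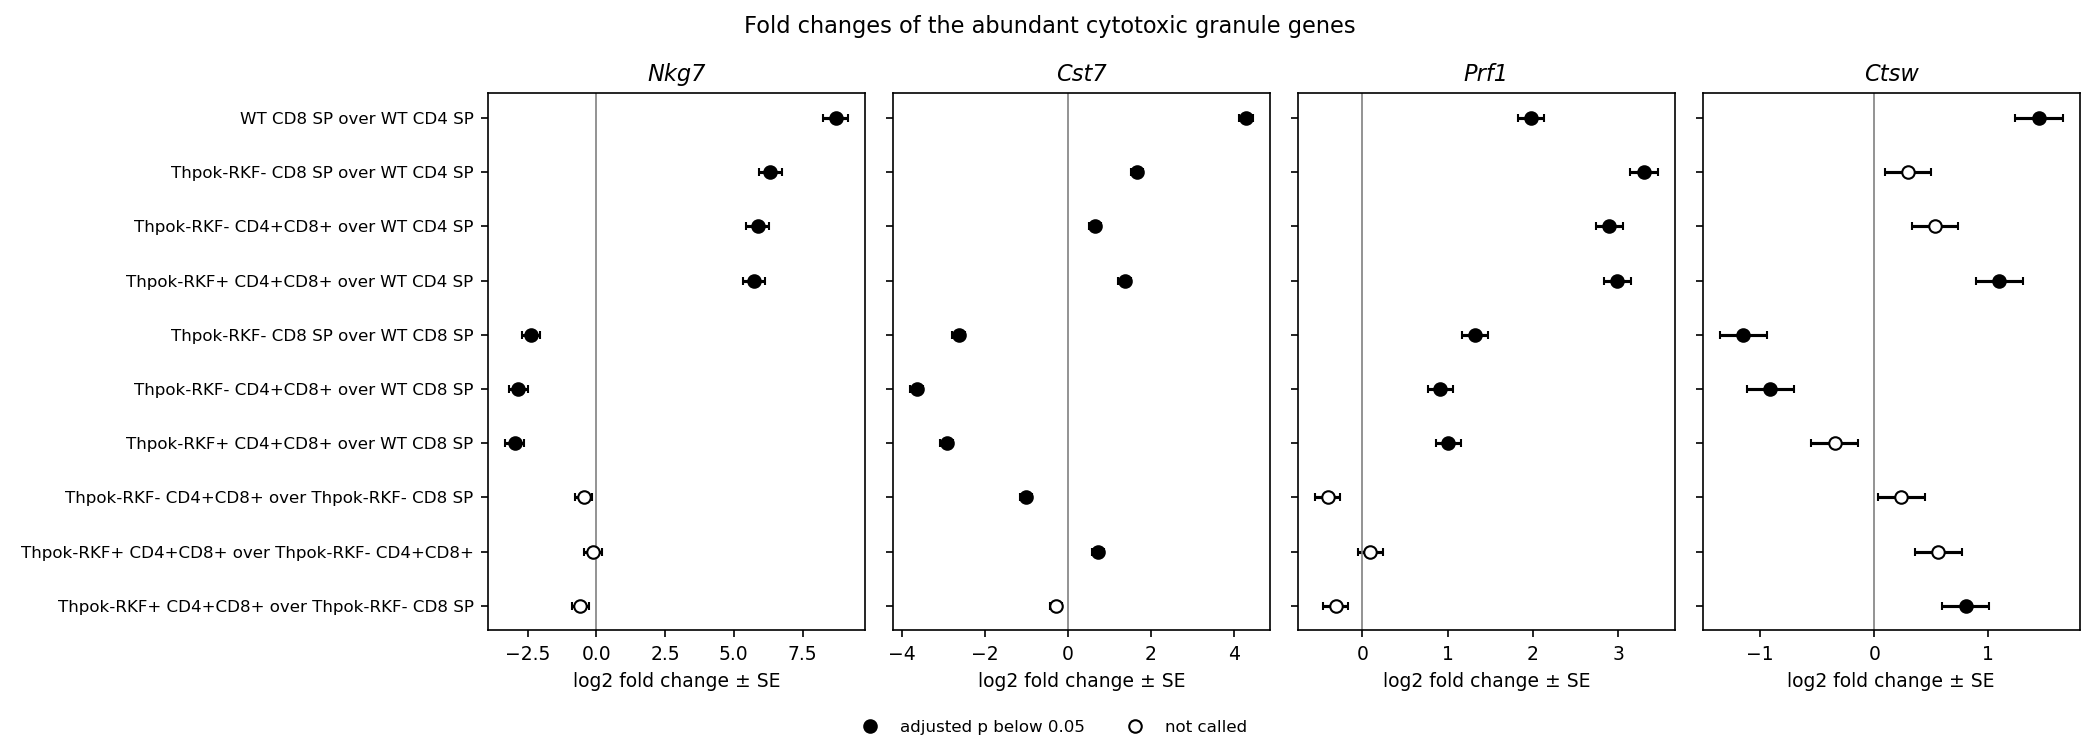
Log2 fold change ± SE of Nkg7, Cst7, Prf1 and Ctsw in the 10 comparisons (first group over second), filled where the adjusted p was below 0.05. The horizontal axes differ between panels, and Prf1 is the 1 gene to the right of 0 in the 3 comparisons of mutant with WT CD8 SP cells.

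Counted over the set, 6 of 8 tested members were higher in WT CD8 SP than in WT CD4 SP cells and none lower, where 18% of all genes tested were called (10.3% higher and 7.72% lower). The CPM ranges of 7 of the 8 did not overlap, as for 36.3% of all genes. The number called higher was 5 by DESeq2, with no filter, with a replicate block and with only the compared groups. It was 4 without the libraries numbered 1 and 4 or 5 with single libraries left out, and stayed at 6 by limma and with RLE factors. The median log2 fold change of the 8 was 2.30, beside 0.03 over all genes tested. Members had to be detected to be tested and were chosen with earlier results of these data known. These are therefore descriptions and not tests of the set. Against WT CD4 SP cells, 4 of 8 members were higher and 0 lower in each mutant group, where 7.26% of all genes were called in Thpok-RKF+ CD4+CD8+, 17.6% in Thpok-RKF- CD4+CD8+ and 17.7% in Thpok-RKF- CD8 SP cells. Split by direction these were 4.36% higher and 2.91% lower, 9.15% higher and 8.42% lower, and 8.91% higher and 8.75% lower. Ranges did not overlap for 5, 5 and 4 of the 8 members, as for 21%, 38.4% and 37% of all genes. Nkg7, Cst7 and Prf1 made up 3 of the 4 each time, with Ctsw in Thpok-RKF+ cells and Gzma in both Thpok-RKF- groups. The medians were 1.37, 1.25 and 1.85 in that order, beside 0.01, 0.01 and -0.00 over all genes tested. These comparisons share the WT CD4 SP libraries.

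Against WT CD8 SP cells, Prf1 alone was higher in each mutant group. In Thpok-RKF+ CD4+CD8+ cells 2 of 8 members were lower, in Thpok-RKF- CD4+CD8+ cells 3 and in Thpok-RKF- CD8 SP cells 4, where 11.1%, 12.1% and 18.4% of all genes were called in either direction. Split by direction these were 4.97% higher and 6.11% lower, 5.11% higher and 7.04% lower, and 7.78% higher and 10.6% lower. Ranges did not overlap for 6, 7 and 6 of the 8 members, as for 27%, 35.5% and 39.6% of all genes. The medians were -1.40, -1.74 and -1.77, beside -0.01, -0.01 and 0.00 over all genes. These comparisons share the WT CD8 SP libraries. Among mutant groups 1 of 8 members passed in each comparison. It was Cst7 for Thpok-RKF+ over Thpok-RKF- CD4+CD8+ cells, where 0.961% of all genes were called, Cst7 for Thpok-RKF- CD4+CD8+ over Thpok-RKF- CD8 SP cells (2.44%) and Ctsw for Thpok-RKF+ CD4+CD8+ over Thpok-RKF- CD8 SP cells (5.52%). Split by direction these were 0.586% higher and 0.375% lower, 1.72% higher and 0.719% lower, and 3.4% higher and 2.11% lower. Ranges did not overlap for 2, 4 and 4 of the 8 members, as for 16.4%, 21.1% and 21.1% of all genes. Single libraries moved the first share: 159 genes passed in all, 1677 without Thpok-RKF+ CD4+CD8+ replicate 1, and 50 to 92 without any 1 of the other 5 libraries compared.

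Of the other 6 granzyme genes of the mouse cluster, Gzmd, Gzme, Gzmf and Gzmn had no counts in any library, Gzmg was near 0, and Gzmc alone was tested. Gzmc had 8, 52 and 41 counts in Thpok-RKF+ CD4+CD8+ libraries, 24, 0 and 0 in Thpok-RKF- CD4+CD8+ libraries and 2, 0 and 0 in Thpok-RKF- CD8 SP libraries, against 61, 58 and 89 counts in WT CD8 SP and 306, 149 and 162 counts in WT CD4 SP libraries. It was highest in WT CD4 SP cells, unlike Gzmb. The ratio of summed counts in Thpok-RKF- CD8 SP cells was 0.00325 relative to WT CD4 SP cells (95% exact binomial interval 0.000392 to 0.0118) and 0.00853 relative to WT CD8 SP cells (0.00103 to 0.0312), and both passed (edgeR, adjusted p = 0.00251 and 0.00595).

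Of 12 genes for granzyme processing and granule storage, 3 were higher and 1 lower in WT CD8 SP than in WT CD4 SP cells, with a median of 0.12. In that comparison 10.3% of all genes tested were higher and 7.72% lower. Srgn, the proteoglycan core that holds granzymes, rose by 0.91 ± 0.13, and Ctsc, the cathepsin that activates progranzymes, by 0.58 ± 0.13 (edgeR, adjusted p = 0.000257 and 0.00681). Srgn had 113, 111 and 100 CPM in Thpok-RKF+ CD4+CD8+ libraries, 82.2, 82.7 and 93.6 in Thpok-RKF- CD4+CD8+ libraries and 50.5, 52.1 and 49.1 in Thpok-RKF- CD8 SP libraries, against 143, 129 and 121 in WT CD8 SP and 54.7, 78.9 and 74.7 in WT CD4 SP libraries. It was thus lowest in Thpok-RKF- CD8 SP cells, 1.37 ± 0.13 below WT CD8 SP cells on the log2 scale (edgeR, adjusted p = 5.36e-06). Ctsc fell in Thpok-RKF+ CD4+CD8+ cells, Thpok-RKF- CD4+CD8+ cells and Thpok-RKF- CD8 SP cells relative to WT CD8 SP cells by 0.67 ± 0.13, 1.01 ± 0.13 and 0.82 ± 0.13 (edgeR, adjusted p = 0.00365, 0.000154 and 0.000428). Relative to WT CD8 SP cells the list had 0 higher and 2 lower, 1 higher and 2 lower, and 2 higher and 2 lower in the same order of groups. Beside these, 11.1%, 12.1% and 18.4% of all genes were called, so such small counts say little about the list. Lamp1 and Lamp2, the lysosomal membrane glycoproteins, passed in none of the 10 comparisons.

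Of 12 matched genes for granule docking and exocytosis, 2 were higher and 2 lower in WT CD8 SP than in WT CD4 SP cells. Beside these, 10.3% of all genes tested were higher and 7.72% lower. The 4 that passed were 3 synaptotagmin-like genes, whose products link granules to Rab27a, and the SNARE gene Vamp8. Sytl3 had 3.07, 1.47 and 2.42 CPM in Thpok-RKF+ CD4+CD8+ libraries, 1.65, 1.99 and 1.89 in Thpok-RKF- CD4+CD8+ and 3.03, 4.21 and 3.30 in Thpok-RKF- CD8 SP libraries, against 55.6, 48.2 and 44.4 in WT CD8 SP and 3.06, 2.23 and 1.99 in WT CD4 SP libraries. All mutant groups lay at the WT CD4 SP level, and Sytl3 fell relative to WT CD8 SP cells by 4.41 ± 0.28, 4.74 ± 0.28 and 3.81 ± 0.27 (edgeR, adjusted p = 1.57e-07, 9.76e-08 and 3.66e-07). Sytl1 had the other pattern, at 86.1, 48.2 and 69.3 CPM on average in Thpok-RKF+ CD4+CD8+ cells, Thpok-RKF- CD4+CD8+ cells and Thpok-RKF- CD8 SP cells, against 49.8 CPM in WT CD8 SP and 17.7 CPM in WT CD4 SP cells, and it rose in the 3 mutant groups relative to WT CD4 SP cells by 2.28 ± 0.21, 1.44 ± 0.20 and 1.97 ± 0.20 (edgeR, adjusted p = 4.36e-06, 0.000317 and 1.44e-05).

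Sytl2, another of these linkers, differed among the mutant groups. It had 84.0, 105 and 111 CPM in Thpok-RKF+ CD4+CD8+ libraries, 58.9, 47.8 and 35.8 in Thpok-RKF- CD4+CD8+ and 11.5, 7.39 and 8.94 in Thpok-RKF- CD8 SP libraries, against 16.7, 17.7 and 20.5 in WT CD8 SP and 44.4, 55.5 and 62.4 in WT CD4 SP libraries. It rose by 1.07 ± 0.20 in Thpok-RKF+ over Thpok-RKF- CD4+CD8+ cells (edgeR, adjusted p = 0.0213). It was the 1 gene of this list that passed there, beside 0.961% of all genes. That call held in 8 of 13 alternatives and was lost without Thpok-RKF- CD4+CD8+ replicate 2 or 3, without Thpok-RKF+ CD4+CD8+ replicate 2 or 3 and with only the compared groups in the fit (adjusted p up to 0.108). Unc13d, Rab27a, Stx11 and Stxbp2, whose human loss causes familial defects of granule release or pigment, passed in none of the 10 comparisons, except for Unc13d, lower by 0.52 ± 0.15 in Thpok-RKF- CD8 SP than in WT CD8 SP cells (edgeR, adjusted p = 0.0242, called in 8 of 13 alternatives). That call was lost without the libraries numbered 1 (edgeR, adjusted p = 0.0867) and without WT CD8 SP replicate 1 or 3 or Thpok-RKF- CD8 SP replicate 2 or 3 (adjusted p up to 0.111).

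**Figure D4:**
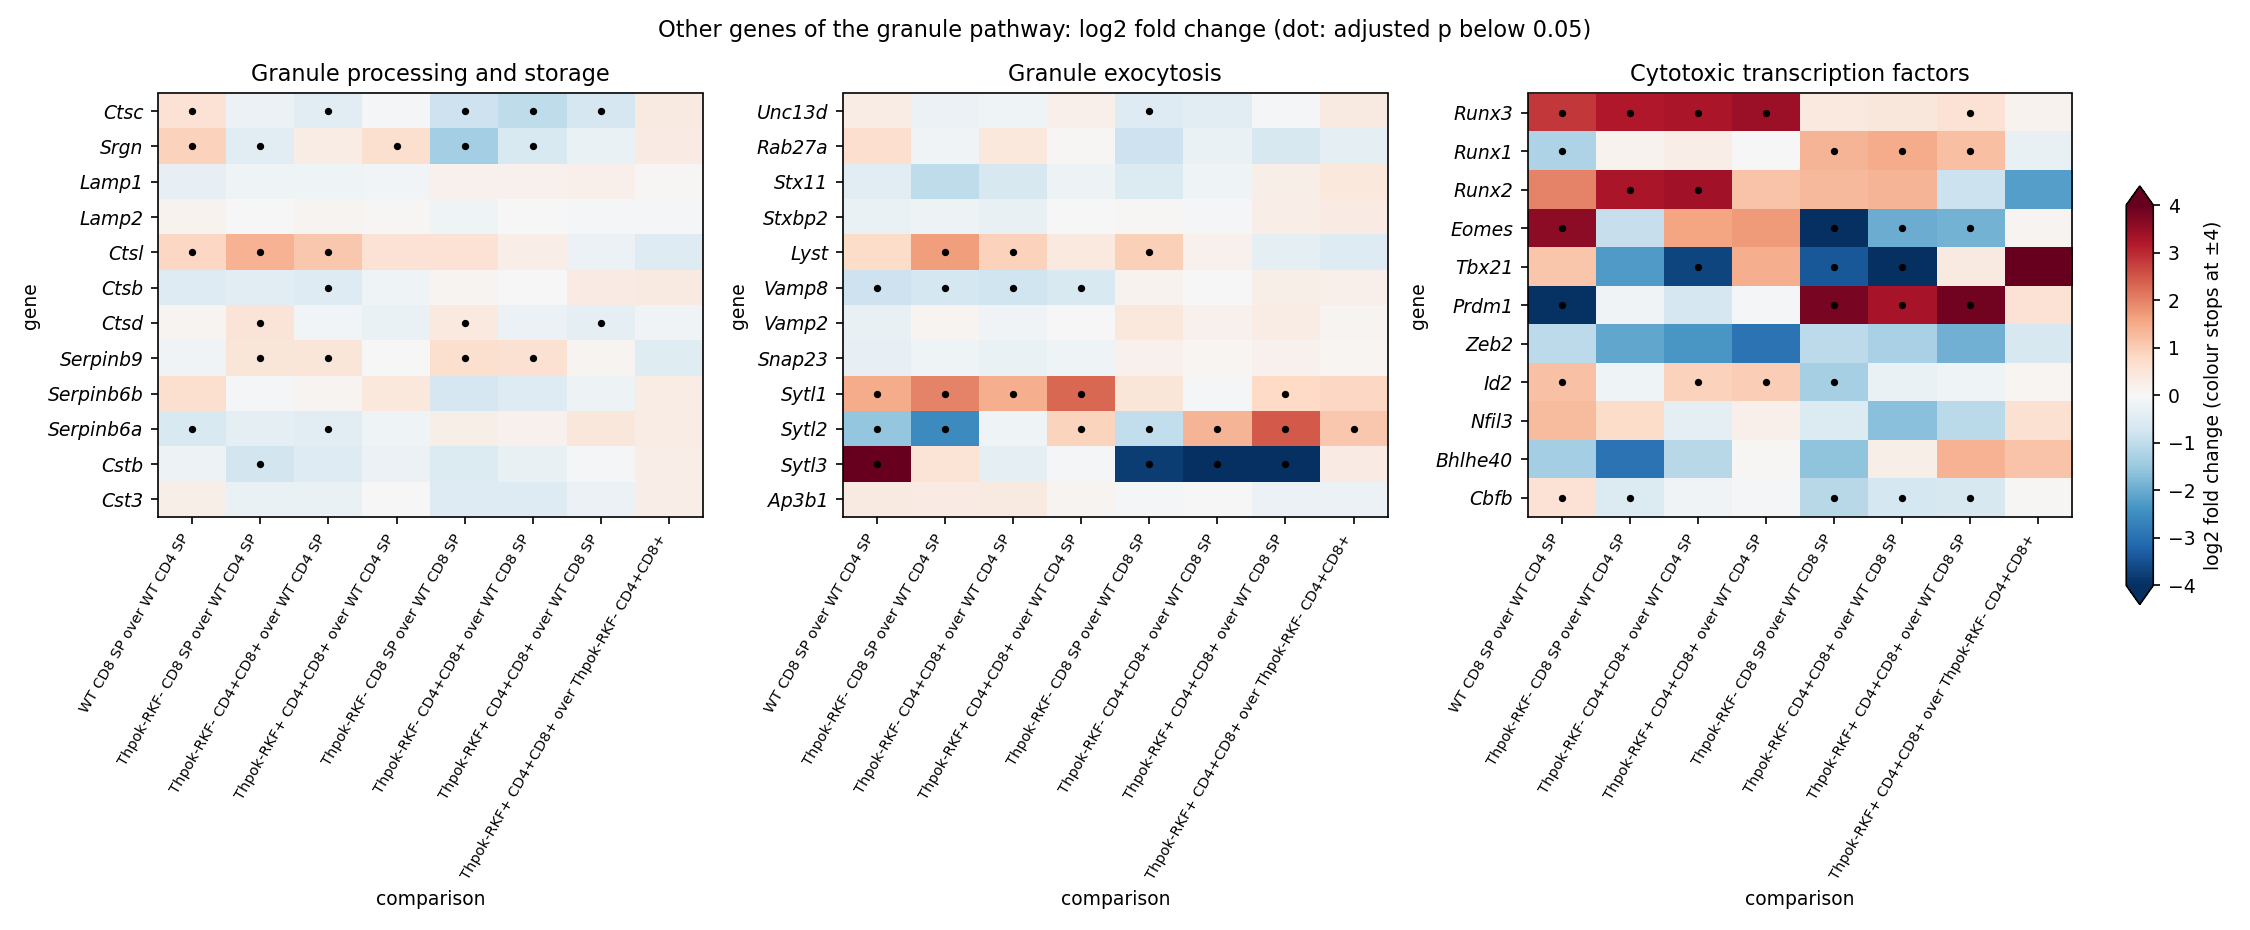
Log2 fold changes (colour, limited at ±4) of genes for granule processing and storage, granule exocytosis and cytotoxic transcription factors in 8 comparisons (first group over second), with a dot where the adjusted p was below 0.05. Sytl3 is dark blue in the 3 comparisons of mutant with WT CD8 SP cells, whereas Runx3 is dark red in the 4 comparisons with WT CD4 SP cells.

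Among other killing effectors, Fasl, the ligand of the Fas death receptor, had 3.49, 3.56 and 3.32 CPM in Thpok-RKF+ CD4+CD8+ libraries, 1.30, 0 and 0.777 in Thpok-RKF- CD4+CD8+ and 0.988, 0.389 and 0.401 in Thpok-RKF- CD8 SP libraries, against 0.0797, 0.0502 and 0 in WT CD8 SP and 7.63, 7.37 and 12.6 in WT CD4 SP libraries. It was highest in WT CD4 SP cells. Of 5 tested killing effectors, none was higher and 2, Fasl and Lta, were lower in WT CD8 SP than in WT CD4 SP cells. In that comparison 10.3% of all genes tested were higher and 7.72% lower. Lta, a ligand of the tumour necrosis factor family, rose relative to WT CD8 SP cells in Thpok-RKF+ CD4+CD8+ cells, Thpok-RKF- CD4+CD8+ cells and Thpok-RKF- CD8 SP cells by 1.33 ± 0.17, 1.08 ± 0.17 and 1.24 ± 0.17 (edgeR, adjusted p = 0.000149, 0.000834 and 0.000135). Of 6 other chemokine ligands 2 were tested. Xcl1 had 186 counts over WT CD8 SP cells and 3 over WT CD4 SP cells, and 2, 2 and 0 over Thpok-RKF+ CD4+CD8+ cells, Thpok-RKF- CD4+CD8+ cells and Thpok-RKF- CD8 SP cells, and it was lower in each mutant group than in WT CD8 SP cells (edgeR, adjusted p = 0.0196, 0.0184 and 0.00489). The first call was lost without WT CD8 SP replicate 2 or 3 or Thpok-RKF+ CD4+CD8+ replicate 3 (adjusted p up to 0.0867). The second was lost without WT CD8 SP replicate 2 or 3 or Thpok-RKF- CD4+CD8+ replicate 1 or 2 (adjusted p up to 0.0827). Xcl1 passed the filter on low counts only through WT CD8 SP cells. It could therefore only come out lower elsewhere, and these calls are descriptions.

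Of 11 factors of the cytotoxic programme, 4 were higher and 2 lower in WT CD8 SP than in WT CD4 SP cells. Over all genes tested, 10.3% were higher and 7.72% lower. Eomes, a T-box factor of CD8 T cells, had 3.51, 3.87 and 4.57 CPM in Thpok-RKF+ CD4+CD8+ libraries, 2.99, 3.59 and 4.46 in Thpok-RKF- CD4+CD8+ and 0.831, 0.302 and 0.802 in Thpok-RKF- CD8 SP libraries, against 11.1, 15.6 and 17.4 in WT CD8 SP and 2.69, 0.724 and 0.251 in WT CD4 SP libraries. It was lowest in Thpok-RKF- CD8 SP and WT CD4 SP cells, and its relation to Prf1 was not tested. Relative to WT CD8 SP cells Eomes fell by 4.51 ± 0.66 in Thpok-RKF- CD8 SP cells (edgeR, adjusted p = 0.000204, called in 13 of 13 alternatives). Runx1, the Runx factor of immature thymocytes, rose relative to WT CD8 SP cells by 1.199 ± 0.18, 1.49 ± 0.18 and 1.36 ± 0.18 in Thpok-RKF+ CD4+CD8+ cells, Thpok-RKF- CD4+CD8+ cells and Thpok-RKF- CD8 SP cells, and Prdm1, which encodes Blimp-1, by 3.85 ± 0.75, 3.28 ± 0.74 and 3.80 ± 0.75 (edgeR, adjusted p = 0.000436, 7.33e-05 and 7.68e-05 for Runx1 and 0.00352, 0.00916 and 0.00227 for Prdm1). Cbfb, the partner subunit of Runx factors, fell by 0.65 ± 0.14, 0.70 ± 0.14 and 1.12 ± 0.14 (edgeR, adjusted p = 0.00744, 0.00463 and 6.24e-05), the first call being lost without WT CD8 SP replicate 3 (adjusted p = 0.0689).

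Markers of NK cells and of mast cells, which carry granules, summed to at most 5.71 CPM per list in any library. Of 7 NK cell markers, Ncr1 was at 0 in all 15 libraries and the summed level of the list lay between 0.130 and 3.42 CPM in Thpok-RKF+ CD4+CD8+, 0.203 and 0.465 in Thpok-RKF- CD4+CD8+, 0.135 and 1.73 in Thpok-RKF- CD8 SP, 2.29 and 5.71 in WT CD8 SP and 0.366 and 2.85 in WT CD4 SP libraries. Mast cell markers, of which 2 of 3 were at 0 in all libraries, summed to at most 1.14 CPM. Summed markers of effector and memory cells were highest in WT CD8 SP cells, as Nkg7 and Cst7 were, but lowest in Thpok-RKF- CD8 SP cells, at 87.4 to 109 CPM in Thpok-RKF+ CD4+CD8+, 59.5 to 78.3 in Thpok-RKF- CD4+CD8+ and 23.4 to 30.7 in Thpok-RKF- CD8 SP libraries, against 270 to 287 in WT CD8 SP and 64.8 to 98.0 in WT CD4 SP libraries. The sum covers genes that moved in opposite directions. Of 4 tested, 1 was higher and 1 lower in each mutant group than in WT CD4 SP cells. Over all genes 7.26%, 17.6% and 17.7% were called in those comparisons, in the same order of mutant groups. The part of effector and memory markers in the results was not tested. The 5 NKT and innate-like markers summed to 595 to 633 CPM in Thpok-RKF+ CD4+CD8+, 421 to 568 in Thpok-RKF- CD4+CD8+ and 267 to 374 in Thpok-RKF- CD8 SP libraries, against 667 to 707 in WT CD8 SP and 316 to 349 in WT CD4 SP libraries. Within that list Il2rb, a cytokine receptor chain that CD8 T cells also express, averaged 597 CPM in WT CD8 SP cells, while Zbtb16, which defines NKT cells, averaged at most 1.59 CPM in any group. Myeloid markers stood apart in replicate 1 of Thpok-RKF+ CD4+CD8+ cells (41.9 CPM, against 1.92 and 1.44 in replicates 2 and 3) and of WT CD4 SP cells (32.9, against 3.43 and 4.18). B cell markers summed to 41.1 to 45.7 CPM in WT CD8 SP libraries and to at most 18.03 CPM elsewhere, with 2 of 4 at 0 in all libraries. The part of these lists in the results was not tested. Immature thymocyte markers summed to 109 to 198 CPM in Thpok-RKF- CD8 SP libraries and to at most 56.4 CPM in every other group. That sum, too, covers genes that moved in opposite directions. In Thpok-RKF- and Thpok-RKF+ CD4+CD8+ cells over Thpok-RKF- CD8 SP cells, 1 of 4 was lower, where 0.719% and 2.11% of all genes were. The log2 fold changes of 3 of the 4 were positive each time, with medians of 1.60 and 1.31, and 0 were called higher. The part of these markers in the Prf1 level of Thpok-RKF- CD8 SP cells was not tested.

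Over the 15 libraries, which fall into 5 groups so that likeness is mostly likeness of group means, Nkg7 and Cst7 had a Pearson r of 0.80 in log2 CPM, Nkg7 and Prf1 0.74 and Cst7 and Prf1 0.24. Among 9625 genes with a mean log2 CPM of at least 1, the genes most like Nkg7 were Haao (r = 0.985), Bace1 (0.979) and Itgae (0.978). Those most like Cst7 were Slc11a2 (0.956), Vars (0.946) and Myo1f (0.943). The gene most like Prf1 was Islr (0.996), with 3.55, 10.8 and 12.1 CPM in Thpok-RKF+ CD4+CD8+, 4.80, 7.02 and 8.51 in Thpok-RKF- CD4+CD8+ and 9.56, 11.2 and 13.3 in Thpok-RKF- CD8 SP libraries, against 1.49, 1.40 and 1.19 in WT CD8 SP libraries and 0 in the 3 WT CD4 SP libraries. Tlr12 (0.971) and Cacng4 (0.965) followed, and for these 3 genes every mutant mean lay above the WT CD8 SP mean and the WT CD4 SP mean was lowest. Those most like Ctsw were Trpm1 (0.919), Ly6c2 (0.909) and AB124611 (0.903).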

How the data were processed

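Mature thymocyte RNA was extracted with an RNeasy Plus Micro kit, made into libraries with SMARTer Ultra Low Input reagents and read as 101 bp pairs on a NovaSeq, per the labels' protocols. The tools and build listed in the submitters' processing notes are STAR, HTSeq, Trimmomatic, bcl2fastq 2.17, DESeq2 and mm39, with no roles, annotation or strand setting. The deposited tables hold read counts for each gene, and FPM values that the authors scaled from them, which are CPM: multiplied by each library's gene total, 100% were whole (tolerance 0.01). The count test was run on the deposited counts. Each of the tables of the whole series held 3 further columns, left aside because their names fit no sample. Summary lines that name no gene, 5 per library, held 15.9% to 21.0% of counted reads and were left out. Replicates differed by more than sampling noise (chi-square over degrees of freedom 11.1 to 190.4).

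Samples were grouped by population and genotype in the labels. edgeR 4.0.16 (R 4.3.3) fitted all 15 libraries as group means with TMM and its expression filter (minimum count 10, minimum total 15), for 10 comparisons, with Benjamini-Hochberg adjustment over 16550 genes and a threshold of 0.05. Standard errors were taken as the log2 fold change divided by the root of F, and levels as CPM on TMM-scaled sizes. Ratios of summed counts carry exact binomial intervals at 95%, and a count of 0 a floor of 3 counts over the group. Scripts were tested on simulated data. The members and lists were chosen with earlier results of these data known. All 9 members were named, up to 4 genes of each other list by smallest adjusted p, the 3 genes most like each abundant member, and Zbtb7b, Runx3, Cd4 and Cd8a as a check of labels. Jun, Klrd1, Unc13d, Lamp1, Lamp2, Rab27a, Stx11, Stxbp2 and the listing of marker genes at 0 fell outside this rule and were chosen after values were seen. Vamp7 matched no row. Alternatives were RLE factors, no filter, DESeq2 1.42.0, only the compared groups, a replicate block, limma 3.58.1 on log2 of FPM plus 1, each library left out, and all libraries numbered 1 left out. Replicate numbers were not used as pairs outside the replicate block. Promoters are from RefSeq (GRCm38.p6).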

Additional observations from a re-analysis of the deposited data

How the results depend on the processing

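Over 13 alternatives for each of 45 member values, 33 of them called, 535 of 585 alternative values kept direction and side of the threshold, 41 lost a call, 5 gained one and 4 changed sign, none of them of a called value. RLE factors changed none of the 45. The sign changes were Ctsw in Thpok-RKF- CD8 SP over WT CD4 SP cells (-0.029 without the libraries numbered 1) and, with single libraries left out, Ctsw in Thpok-RKF- CD4+CD8+ over Thpok-RKF- CD8 SP cells (-0.026 to 0.49), Nkg7 (-0.27 to 0.048) and Prf1 (-0.0065 to 0.28) in Thpok-RKF+ over Thpok-RKF- CD4+CD8+ cells. Of 113 called values of the other granule lists, 221 of 1467 alternative values lost the call and 0 changed sign.

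The number of members called was 2 with only the compared groups in the fit and 2 to 4 with single libraries left out for Thpok-RKF- CD4+CD8+ over WT CD4 SP cells, 5 by limma for Thpok-RKF+ CD4+CD8+ over WT CD8 SP cells, and 2 without the libraries numbered 1 for Thpok-RKF- CD4+CD8+ over Thpok-RKF- CD8 SP cells. For Thpok-RKF+ over Thpok-RKF- CD4+CD8+ cells it was 0 with only the compared groups, 0 by limma, 2 without the libraries numbered 1 and 0 to 1 with single libraries left out. For Thpok-RKF+ CD4+CD8+ over Thpok-RKF- CD8 SP cells it was 0 with only the compared groups and 0 to 1 with single libraries left out. The causes were not tested. Same-numbered libraries of different groups were at most weakly alike in their deviations from group means (r from -0.050 to 0.221). Of 30 such pairs, 5 were over r = 0.1, all of them between libraries numbered 1, and 18 correlated best with their own number. What the libraries numbered 1 share was not tested. In edgeR a replicate block ended the call of Gzmb between the WT groups (adjusted p = 0.0523). It gained Ctsw in Thpok-RKF- CD4+CD8+ over WT CD4 SP cells (edgeR, adjusted p = 0.0495).

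Counts of all genes called moved by over 1.5 times for Thpok-RKF+ CD4+CD8+ over WT CD4 SP cells (1202, against 581 with only the compared groups and 1980 by DESeq2), Thpok-RKF- CD4+CD8+ over Thpok-RKF- CD8 SP cells (403, against 785 by DESeq2), Thpok-RKF+ over Thpok-RKF- CD4+CD8+ cells (159, against 428 with no filter, 52 with only the compared groups, 708 by DESeq2, 287 by limma and 1753 without the libraries numbered 1) and Thpok-RKF+ CD4+CD8+ over Thpok-RKF- CD8 SP cells (913, against 496, 1566 by DESeq2 and 2105 without the libraries numbered 1). With single libraries left out, the lowest counts were 1908 of 2981 for WT CD8 SP over WT CD4 SP (without WT CD8 SP replicate 2), 1613 of 2922 for Thpok-RKF- CD8 SP over WT CD4 SP (without Thpok-RKF- CD8 SP replicate 2), 1488 of 2908 for Thpok-RKF- CD4+CD8+ over WT CD4 SP (without WT CD4 SP replicate 3), 1147 of 2010 for Thpok-RKF- CD4+CD8+ over WT CD8 SP (without WT CD8 SP replicate 3), 1093 of 1835 for Thpok-RKF+ CD4+CD8+ over WT CD8 SP (without WT CD8 SP replicate 2), 216 of 403 for Thpok-RKF- CD4+CD8+ over Thpok-RKF- CD8 SP (without Thpok-RKF- CD8 SP replicate 3), 50 of 159 for Thpok-RKF+ over Thpok-RKF- CD4+CD8+ (without Thpok-RKF- CD4+CD8+ replicate 2) and 492 of 913 for Thpok-RKF+ CD4+CD8+ over Thpok-RKF- CD8 SP (without Thpok-RKF- CD8 SP replicate 2). Without Thpok-RKF+ CD4+CD8+ replicate 1 the last 2 of these counts were 1677 and 1782. Depth limits Gzma, Gzmb, Gzmk, Gzmm and Ccl5, whose group means were at most 2.28 CPM.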
